A study of Homo sapiens with 12 samples.

Results

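CFLAR and 8 other genes of the death receptor pathway (CASP8, CASP10, FADD, FAS, TNFRSF10A, TNFRSF10B, TNFRSF1A and RIPK1) were followed across all 4 groups of arrays. Members were the probe sets whose gene symbol in the array annotation is 1 of these 9 genes, and they came to 35 of the 54613 probe sets tested, for 8 of 19775 genes. CFLAR had 14 of them, FAS 5, CASP10 and TNFRSF10B 4 each, CASP8 and TNFRSF10A 3 each, and FADD and TNFRSF1A 1 each. RIPK1 was not analysed here. None of the 35 probe sets names a second gene. The genes were proposed with values of these same arrays in view. Their calls come from tests run over all probe sets, but for these genes differences and calls are given as description only.

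The study put 12 Affymetrix expression arrays into 4 groups of 3, namely MMS1 with a miR-16 sponge, MMS1 with a control sponge, RPMI8226 with a miR-16 sponge and RPMI8226 with a control sponge. Both are labelled as multiple myeloma lines, a cancer of plasma cells, and the sponge arrays carry the abbreviation miR16 KO. All 4 groups were transduced with lentivirus carrying GFP, sorted by flow cytometry, expanded and lysed at the same time, and they differ in line and in whether the sponge binds miR-16 or is a mock. A sponge is a transcript with repeated microRNA binding sites that keeps the microRNA from its targets, so the microRNA gene itself stays in place. The promoter driving the sponge and the number of founder cells are not given in the sources used here, and nothing in the labels says which arrays came from which flask. Spreads, standard errors and p-values therefore describe these arrays, and part of that spread may be technical.

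Death receptors are cell surface proteins of the TNF receptor family with an intracellular death domain. When FAS or the TRAIL receptors TNFRSF10A and TNFRSF10B bind ligand, the adaptor FADD is recruited and brings in the initiator proteases CASP8 and CASP10, which activate each other and start apoptosis. CFLAR encodes c-FLIP, a relative of CASP8 without protease activity that enters the same complex. It is made as a long and as short splice forms, all of which can block activation of CASP8, and its transcription is a known target of NF-kB. TNFRSF1A, the main TNF receptor, signals first through the kinase RIPK1 to NF-kB and only secondarily to FADD and CASP8.

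The microRNA the sponge was made to bind is shown with close relatives that share its seed. Sites for it were not searched for in the members, and none of them is read here as its target. Sequences are mature forms from RefSeq, build GRCh38.p14, 5′ to 3′, with bases 2 to 8 (the seed) in capitals. The mature miR-16 sequence lies at chr13:50049027-50049048 on the minus strand and at chr3:160404754-160404775 on the plus strand. The mature miR-15a lies at chr13:50049167-50049188 on the minus strand and miR-15b at chr3:160404607-160404628 on the plus strand. The seed is shared by 7 mature names in RefSeq's list.
hsa-miR-16-5p: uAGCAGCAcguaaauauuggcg
hsa-miR-15a-5p: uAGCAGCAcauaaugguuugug
hsa-miR-15b-5p: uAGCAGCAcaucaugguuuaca

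CFLAR, CASP10 and CASP8 are neighbours on chromosome 2, in this order in the GRCh38.p14 gene table. Probe sets of CFLAR and CASP8 had the most negative differences among the members in MMS1. Promoter windows of these neighbours are shown where the promoter list held them, which it did for CFLAR and CASP8 and not for CASP10. Each runs from 250 bases before to 50 bases after a listed start, plus strand, 5′ to 3′. The CFLAR window at chr2:201118466-201118765 is the first of 4 listed, and the CASP8 window at chr2:201233213-201233512 the first of 3. Capitals mark a match to the NF-kB consensus, searched on both strands.
CFLAR: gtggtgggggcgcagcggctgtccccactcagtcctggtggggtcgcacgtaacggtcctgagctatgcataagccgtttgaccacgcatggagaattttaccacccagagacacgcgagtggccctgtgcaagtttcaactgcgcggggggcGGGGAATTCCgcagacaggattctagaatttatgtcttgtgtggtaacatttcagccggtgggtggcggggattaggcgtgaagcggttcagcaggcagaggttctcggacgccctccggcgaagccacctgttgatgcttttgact
CASP8: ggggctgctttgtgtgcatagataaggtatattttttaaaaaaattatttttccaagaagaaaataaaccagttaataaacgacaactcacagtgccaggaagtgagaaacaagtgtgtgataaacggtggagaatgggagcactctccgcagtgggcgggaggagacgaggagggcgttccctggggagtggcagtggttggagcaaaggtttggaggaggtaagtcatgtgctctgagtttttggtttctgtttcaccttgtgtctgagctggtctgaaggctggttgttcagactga

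The single match in the CFLAR window begins at position -97 from the start, and the CASP8 window holds none. The consensus was chosen after the CFLAR window had been looked at. It occurs in 2075 of 35116 promoter windows of the same length (5.91%). Promoters were listed for 6 of the 9 genes, 15 windows in all, and 2 held the consensus, 1 of 4 for CFLAR and 1 of 3 for FAS. A match is a description of these letters and not evidence of binding.

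Values are the authors' log2 signals, with a lower bound of 4, a median over probe sets of 5.83 and a highest value of 14.71. Differences are miR-16 sponge minus control sponge on the log2 scale with their standard error from a limma fit to all 12 arrays, and "called" means a Benjamini-Hochberg adjusted p under 0.05 over all 54613 probe sets. The median standard error of a difference was 0.14. Probe sets differ in brightness for reasons other than transcript level, so the results for members rest on comparisons between groups. Where a marker or member is placed by its brightness against other probe sets, the placing is only rough. Array medians lay between 5.80 and 5.90. The 18S ribosomal control probe sets set 1 array apart, MMS1 miR-16 sponge replicate 1, where they averaged 7.84, against 9.56 to 11.14 on the other 11 arrays. Without it the members called in MMS1 still came to 14, though CASP8 207686_s_at (-0.43) and TNFRSF10B 209294_x_at (0.55) were lost and FADD 202535_at (-0.44) and CFLAR 214486_x_at (-0.67) were gained.

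The arrays did not carry the plain marker pattern of a myeloma line. Of 12 plasma cell markers 7 had a mean below the median gene, among them JCHAIN (joining chain of antibodies, mean 4.20) and TNFRSF17 (the B cell maturation receptor, mean 4.46), while SDC1 averaged 8.90 and XBP1 8.51. Of 8 erythroid markers measured 1 lay below the median gene, and the embryonic globin HBE1 averaged 14.16. The mean of the erythroid list was 9.48 to 9.58 on the MMS1 miR-16 sponge arrays, against 10.29 to 10.44 on the MMS1 control arrays. In RPMI8226 it was 10.22 to 10.27 on miR-16 sponge arrays and 10.22 to 10.29 on control arrays. Within the list the MMS1 sponge comparison called HBZ (-1.94), KLF1 (-1.85), ALAS2 (-2.51) and GATA1 (-0.41) lower and TFRC (0.67, limma, adjusted p = 0.00125) higher, and the RPMI8226 one called HBE1 lower (-0.49, adjusted p = 0.046). The mean of 5 T cell markers was 6.88 to 7.15 on MMS1 miR-16 sponge arrays and 5.73 to 5.85 on MMS1 controls, carried by CD3D (5.64 higher, limma, adjusted p = 2.44e-11), and 5.66 to 5.96 over the 6 RPMI8226 arrays. The mean of the plasma cell list did not separate the groups (5.95 to 6.25 over all arrays), and 0 of its 12 genes were called in either line. Of these genes SDC1 alone had all sponge arrays above all controls in both lines (0.25 in MMS1 and 0.32 in RPMI8226). The means of the erythroid and T cell lists thus move with the MMS1 sponge comparison and HBE1 with the RPMI8226 one, and their part in the results below was not tested. In bulk RNA, fewer cells of a type and less RNA per cell cannot be told apart.

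In MMS1, 12 of the 35 member probe sets were called lower and 2 higher with the miR-16 sponge, and in RPMI8226 3 were called lower and 0 higher. Over all probe sets 6.11% were called lower and 4.20% higher in MMS1, and 0.172% lower and 0.0238% higher in RPMI8226. The members' median difference was -0.30 in MMS1 and -0.17 in RPMI8226, where the median over all probe sets was -0.02 in each line. Since the genes were chosen with these comparisons in view, nothing is read from these counts. In MMS1 the 3 sponge arrays lay all below the 3 controls at 18 of the 35 probe sets (15.2% of all probe sets), all above at 4 (11.6%), and overlapped them at 13. In RPMI8226 they lay all below at 11 (14.6%), all above at 1 (7.27%), and overlapped at 23.

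In the fit to all 12 arrays CFLAR alone among the members had a call in both lines, and all of its calls were lower. With only brighter probe sets or with an intensity trend TNFRSF10A also had one in each line, at different probe sets (241371_at in RPMI8226, -0.48, and 231775_at in MMS1, -0.51). Of the 14 CFLAR probe sets 8 were called in MMS1 and 3 in RPMI8226, and these 3, 209939_x_at, 210563_x_at and 210564_x_at, were called in both. Over the whole array 28 probe sets (0.0513%) were called lower in both lines. The CFLAR median was -0.54 in MMS1 and -0.19 in RPMI8226. The probe sets did not move as 1 block: they fell into 3 called in both lines, 5 called in MMS1 and not in RPMI8226, and 6 called in neither, a grouping made after their values were seen. Nothing in the annotation used here says which splice form each reads. All 3 called in both lines are of the x_at kind, which can share probes with other transcripts, as are 9 of the 14.

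Probe set 209939_x_at, the brightest for CFLAR, read 8.42, 8.35 and 8.28 in MMS1 with the miR-16 sponge, against 8.89, 8.92 and 8.94 with the control sponge. In RPMI8226 it read 8.07, 7.84 and 7.76 with the miR-16 sponge and 8.81, 9.01 and 8.91 with the control. In each line every sponge array lay below every control array, and the controls of the lines were at the same level (8.91 ± 0.10 in RPMI8226 and 8.92 ± 0.03 in MMS1, SD, n = 3 each). The difference was -1.02 (SE 0.11) in RPMI8226, 0.49 times the control signal, and -0.56 (SE 0.11) in MMS1, 0.68 times. The difference between these effects, RPMI8226 minus MMS1, was -0.46 (SE 0.15) and was not called.

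The second brightest, 210563_x_at, gave tight groups, with SDs of 0.01 to 0.09. Its miR-16 sponge arrays read 7.78, 7.95 and 7.80 in MMS1, against 8.47, 8.39 and 8.47 on the controls, a difference of -0.60 (SE 0.09). In RPMI8226 the miR-16 sponge arrays read 7.54, 7.57 and 7.56 and the controls 8.41, 8.47 and 8.50, a difference of -0.90 (SE 0.09). No sponge array came within the range of its controls in either line.

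Probe set 210564_x_at is dimmer and showed the same layout. MMS1 gave 6.02, 5.99 and 6.07 with the miR-16 sponge and 6.78, 6.81 and 6.57 with the control, a difference of -0.69 (SE 0.11). RPMI8226 gave 5.97, 6.06 and 5.86 with the miR-16 sponge and 6.70, 6.97 and 6.89 with the control, a difference of -0.88 (SE 0.11). The 3 RPMI8226 calls held when any 1 array was left out. They were lost when only the 6 RPMI8226 arrays were fitted, a setting in which 8 of all 54613 probe sets were called.

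**Figure D1:**
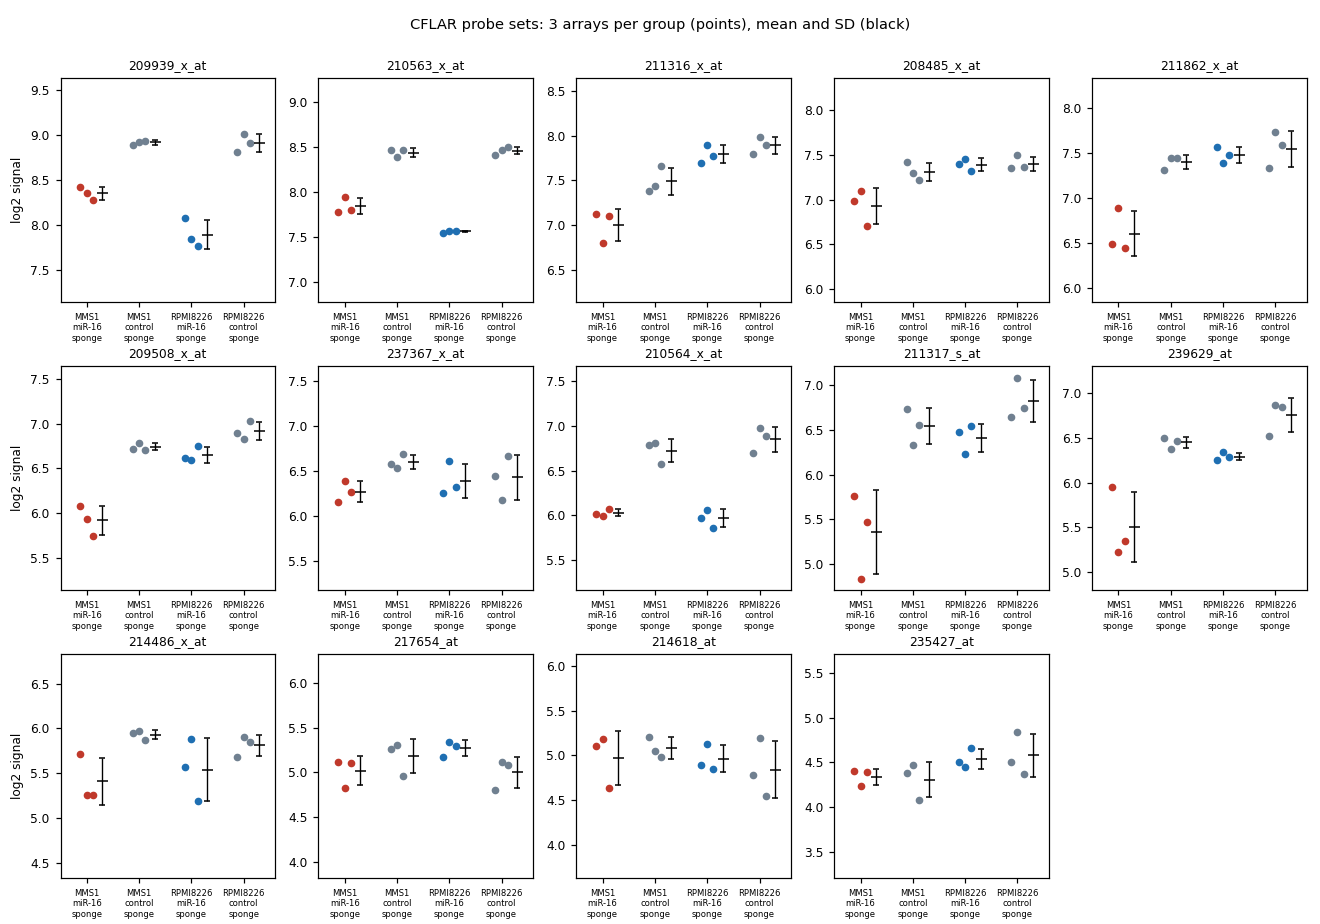
Log2 signal of each of the 14 CFLAR probe sets, from high to low mean, on the 3 arrays of each group (points) with mean and SD (black bars). Every panel spans the same range of log2 units. In 209939_x_at, 210563_x_at and 210564_x_at the miR-16 sponge arrays of both lines lie below their controls, while in 211316_x_at and 211862_x_at the sponge arrays lie below all controls in MMS1 and overlap them in RPMI8226.

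The 5 probe sets called in MMS1 and not in RPMI8226 differed by -1.18 to -0.49 in MMS1 (median -0.81) and by -0.45 to -0.07 in RPMI8226 (median -0.27). At 211317_s_at the MMS1 miR-16 sponge arrays read 5.76, 4.84 and 5.47, against 6.73, 6.33 and 6.55 on the controls, a difference of -1.18 (SE 0.20). The RPMI8226 miR-16 sponge arrays read 6.47, 6.23 and 6.54 there, and the controls 6.64, 7.08 and 6.74, a difference of -0.41 (SE 0.20). The groups did not overlap in either line, although the RPMI8226 difference was not called, and the MMS1 sponge arrays were spread more widely than the other groups (SD 0.47).

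At 239629_at MMS1 gave 5.95, 5.23 and 5.35 with the miR-16 sponge and 6.50, 6.38 and 6.47 with the control, a difference of -0.94 (SE 0.16). RPMI8226 gave 6.25, 6.34 and 6.29 with the miR-16 sponge and 6.52, 6.87 and 6.84 with the control, a difference of -0.45 (SE 0.16). These groups too were separate in both lines, as were those of 209508_x_at. That probe set read 6.08, 5.93 and 5.75 in MMS1 with the miR-16 sponge, against 6.72, 6.78 and 6.70 with the control (-0.81, SE 0.11). RPMI8226 gave 6.61, 6.59 and 6.75 with the miR-16 sponge and 6.89, 6.83 and 7.03 with the control (-0.27, SE 0.11).

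At 2 probe sets the RPMI8226 groups overlapped. Probe set 211862_x_at read 6.48, 6.89 and 6.44 in MMS1 with the miR-16 sponge and 7.31, 7.44 and 7.45 with the control (-0.80, SE 0.14), and in RPMI8226 7.57, 7.39 and 7.48 with the miR-16 sponge and 7.33, 7.73 and 7.59 with the control (-0.07, SE 0.14). Probe set 211316_x_at read 7.12, 6.80 and 7.10 in MMS1 with the miR-16 sponge and 7.38, 7.44 and 7.66 with the control (-0.49, SE 0.12), and in RPMI8226 7.69, 7.90 and 7.77 with the miR-16 sponge and 7.80, 7.98 and 7.89 with the control (-0.11, SE 0.12). The call of 211316_x_at in MMS1 was lost without MMS1 control replicate 3 or MMS1 miR-16 sponge replicate 2 (-0.40 and -0.38) and when only the MMS1 arrays were fitted. The other 7 CFLAR calls in MMS1 held when any 1 array was left out.

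The remaining 6 probe sets, called in neither line, differed by -0.51 to 0.03 in MMS1 and by -0.27 to 0.27 in RPMI8226. Probe set 208485_x_at read 6.99, 7.10 and 6.71 in MMS1 with the miR-16 sponge and 7.42, 7.30 and 7.22 with the control (-0.38, SE 0.12), with no overlap, and differed by -0.01 (SE 0.12) in RPMI8226. In alternative fits the MMS1 difference of 208485_x_at was called with brighter probe sets, with an intensity trend or without MMS1 miR-16 sponge replicate 2. Probe set 237367_x_at differed by -0.33 (SE 0.14) in MMS1 and -0.04 (SE 0.14) in RPMI8226, and 214486_x_at by -0.51 (SE 0.17) and -0.27 (SE 0.17). The MMS1 difference of 214486_x_at was called without MMS1 miR-16 sponge replicate 1 or RPMI8226 miR-16 sponge replicate 2 or 3. Probe set 217654_at was the only CFLAR probe set whose RPMI8226 miR-16 sponge arrays (5.17, 5.34 and 5.29) all lay above the controls (4.80, 5.12 and 5.08), with a difference of 0.27 (SE 0.13), and in MMS1 it differed by -0.16 (SE 0.13). Probe set 214618_at differed by -0.11 (SE 0.17) in MMS1 and 0.12 (SE 0.17) in RPMI8226. The dimmest, 235427_at, stayed between 4.08 and 4.84 on all arrays and so within 1 log2 unit of the lower bound.

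**Figure D2:**
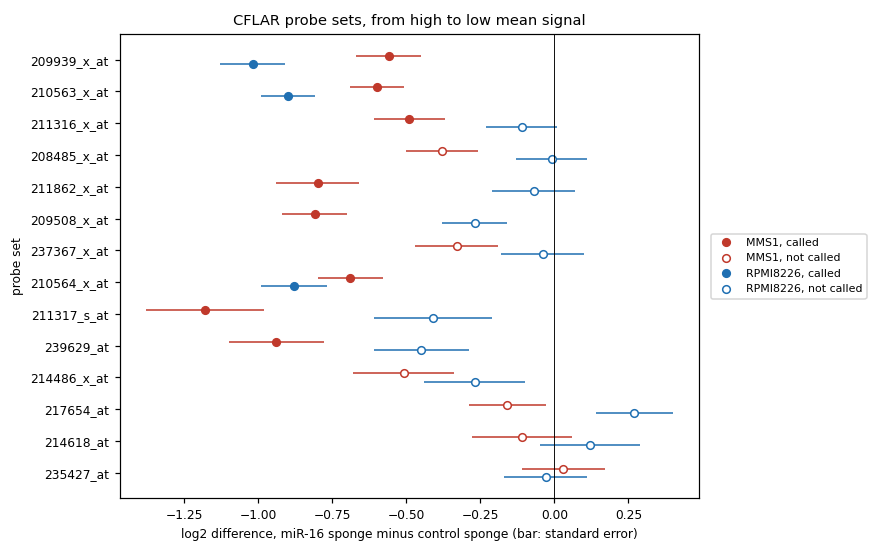
Log2 difference, miR-16 sponge minus control sponge, of each CFLAR probe set in MMS1 (red) and RPMI8226 (blue), with standard errors as bars and probe sets ordered from high to low mean signal. Filled points were called. RPMI8226 has 3 filled points, at -1.02, -0.90 and -0.88, and its other 11 points lie between -0.45 and 0.27.

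The order of the lines differed between the groups of CFLAR probe sets. The 3 called in both lines had effects of -1.02 to -0.88 in RPMI8226 and -0.69 to -0.56 in MMS1, with differences between the effects (RPMI8226 minus MMS1) of -0.46 to -0.19. The other 5 called ones had differences between the effects of 0.38 to 0.77. None of the 14 differences was called by limma, where 5.10% of all probe sets were and 10067 had an unadjusted p under 0.05, and 3 of the 14 were called with an intensity trend in the prior variance. Within an array, the mean of the 3 minus the mean of the 5 was 0.28, 0.27 and 0.10 in RPMI8226 with the miR-16 sponge, against 0.94, 0.85 and 0.88 with the control. In MMS1 it was 1.13, 1.49 and 1.36 with the miR-16 sponge and 1.12, 1.16 and 1.03 with the control. The RPMI8226 sponge arrays thus stood below all other arrays on this measure, and the MMS1 sponge arrays, except replicate 1, stood above their controls. Both probe set groups were picked by these same differences, so the measure describes the split and tests nothing.

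CASP8, the initiator protease that c-FLIP holds in check, was lower in MMS1 at 2 of its 3 probe sets and was not called in RPMI8226. Probe set 213373_s_at read 5.55, 5.07 and 5.68 in MMS1 with the miR-16 sponge, against 6.39, 6.57 and 6.53 with the control, and differed by -1.06 (SE 0.14), 0.48 times the control signal. The RPMI8226 values were 6.28, 6.44 and 6.35 with the miR-16 sponge and 6.37, 6.41 and 6.61 with the control, a difference of -0.11 (SE 0.14). The MMS1 groups lay well apart and the RPMI8226 groups overlapped. The difference between the effects was 0.96 (SE 0.20) and was called, and both this and the MMS1 call held when any 1 array was left out.

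The other CASP8 probe sets were less uniform. At 207686_s_at MMS1 gave 5.34, 5.25 and 5.57 with the miR-16 sponge and 5.83, 5.84 and 5.85 with the control (-0.45, SE 0.12), and RPMI8226 gave 5.86, 5.72 and 5.61 with the miR-16 sponge and 5.68, 6.01 and 5.87 with the control (-0.12, SE 0.12). The MMS1 call there was lost without any 1 of the 3 MMS1 controls or of MMS1 miR-16 sponge replicates 1 and 2 (differences of -0.46 to -0.39), and when only the MMS1 arrays were fitted or the replicate number was a block (-0.45 in each). Probe set 1553306_at pointed the other way in MMS1, with 5.76, 5.83 and 5.45 on the miR-16 sponge arrays and 5.26, 5.53 and 5.21 on the controls (0.35, SE 0.13, not called). In RPMI8226 it differed by -0.16 (SE 0.13). Its groups overlapped in MMS1, so the 3 probe sets of CASP8 did not give 1 direction there.

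CASP10, the second initiator protease, was lower in MMS1 at its brightest probe set, 205467_at. That probe set read 6.63, 6.45 and 6.58 in MMS1 with the miR-16 sponge and 7.09, 6.86 and 7.22 with the control (-0.50, SE 0.12). Its RPMI8226 arrays read 7.07, 7.08 and 6.94 with the miR-16 sponge and 6.94, 7.10 and 7.19 with the control (-0.05, SE 0.12). The call was lost without MMS1 control replicate 1 or 3 or MMS1 miR-16 sponge replicate 2 (-0.48 to -0.42), and when only the MMS1 arrays were fitted. The other 3 probe sets were not called in either line. One of them, 211888_x_at, lay on opposite sides of its controls in the lines: it read 5.21, 5.34 and 5.10 in RPMI8226 with the miR-16 sponge and 5.34, 5.67 and 5.38 with the control (-0.25, SE 0.11), and 5.25, 5.31 and 5.41 in MMS1 with the miR-16 sponge and 5.08, 5.09 and 5.11 with the control (0.23, SE 0.11). The values at 5.34 are equal only after rounding.

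FADD, the adaptor that joins the receptors to these proteases, had 1 probe set, 202535_at, and no call. It read 7.01, 6.69 and 6.81 in MMS1 with the miR-16 sponge and 7.27, 7.04 and 7.28 with the control (-0.35, SE 0.11). In RPMI8226 the signal was 7.13, 7.08 and 6.92 with the miR-16 sponge and 7.21, 7.26 and 7.19 with the control (-0.17, SE 0.11). In both lines every sponge array lay below every control array, although neither difference was called. In alternative fits the MMS1 difference was called with brighter probe sets, with an intensity trend or without MMS1 miR-16 sponge replicate 1.

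The TRAIL receptors TNFRSF10A and TNFRSF10B had calls in opposite directions in MMS1. TNFRSF10A 231775_at read 7.11, 6.72 and 6.66 in MMS1 with the miR-16 sponge and 7.44, 7.24 and 7.36 with the control (-0.51, SE 0.13, called lower). In RPMI8226 it read 6.78, 6.95 and 6.62 with the miR-16 sponge and 7.03, 6.92 and 6.94 with the control (-0.18, SE 0.13), with overlap. Its MMS1 call was lost without MMS1 control replicate 1 or 3 or MMS1 miR-16 sponge replicate 2 or 3 (-0.51 to -0.43), and when only the MMS1 arrays were fitted. A second TNFRSF10A probe set, 241371_at, had RPMI8226 miR-16 sponge arrays (5.96, 6.35 and 5.94) all below the controls (6.52, 6.47 and 6.70), with a difference of -0.48 (SE 0.13) that was called only with brighter probe sets or an intensity trend, and in MMS1 it differed by -0.31 (SE 0.13). All 3 probe sets of the gene were negative in both lines, the third, 1552648_a_at, by -0.13 in MMS1 and -0.35 in RPMI8226.

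TNFRSF10B was the member with higher signal under the miR-16 sponge in MMS1, where all 4 of its probe sets were positive and 2 were called. Probe set 210405_x_at read 7.10, 6.62 and 6.71 with the miR-16 sponge and 6.09, 6.19 and 5.89 with the control, a difference of 0.75 (SE 0.17) or 1.68 times. RPMI8226 gave 6.67, 6.17 and 6.54 with the miR-16 sponge and 6.24, 6.68 and 6.43 with the control, a difference of 0.01. The MMS1 groups were separate and the RPMI8226 groups overlapped. Probe set 209294_x_at read 7.22, 6.90 and 6.90 in MMS1 with the miR-16 sponge and 6.39, 6.31 and 6.34 with the control, a difference of 0.66 (SE 0.16) or 1.58 times. The RPMI8226 values were 6.60, 5.98 and 6.53 with the miR-16 sponge and 6.48, 6.80 and 6.46 with the control, a difference of -0.21 (SE 0.16). Its difference between the effects, -0.87 (SE 0.23), was called, but that call was lost on leaving out any 1 of 11 of the 12 arrays (-0.95 to -0.67), all except RPMI8226 miR-16 sponge replicate 1.

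Both called TNFRSF10B probe sets are of the x_at kind. The MMS1 call of 210405_x_at was lost without MMS1 control replicate 3 (0.66), and that of 209294_x_at without any 1 of the MMS1 controls or MMS1 miR-16 sponge replicate 1 (0.55 to 0.68). The brightest probe set, 209295_at, read 8.28, 7.71 and 7.75 in MMS1 with the miR-16 sponge and 7.64, 7.54 and 7.60 with the control. Its difference of 0.32 (SE 0.14) was not called, and replicate 1, the array apart in its 18S signal, was the highest of the sponge arrays. Without that array the difference was 0.14. Its RPMI8226 arrays read 8.10, 8.23 and 8.18 with the miR-16 sponge and 8.08, 8.08 and 8.19 with the control (0.05).

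FAS, the receptor for FAS ligand, had 5 probe sets, none called in either line. Their differences ran from -0.30 to 0.11 in MMS1 and from -0.39 to 0.19 in RPMI8226, and all 5 had a mean below the median probe set. The brightest, 204781_s_at, read 5.38, 5.64 and 5.75 in MMS1 with the miR-16 sponge and 5.92, 5.81 and 5.84 with the control (-0.27, SE 0.12). In RPMI8226 the signal was 5.43, 5.80 and 5.65 with the miR-16 sponge and 5.81, 5.94 and 5.78 with the control (-0.21, SE 0.12). In MMS1 its sponge arrays lay below the controls and in RPMI8226 they overlapped.

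TNFRSF1A, read by 207643_s_at alone, was not called in either sponge comparison. In MMS1 it read 6.48, 6.31 and 6.13 with the miR-16 sponge and 6.45, 6.17 and 6.40 with the control (-0.03, SE 0.12), with overlap. In RPMI8226 it read 6.75, 6.85 and 6.54 with the miR-16 sponge and 6.92, 6.94 and 7.00 with the control (-0.24, SE 0.12), without overlap.

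**Figure D3:**
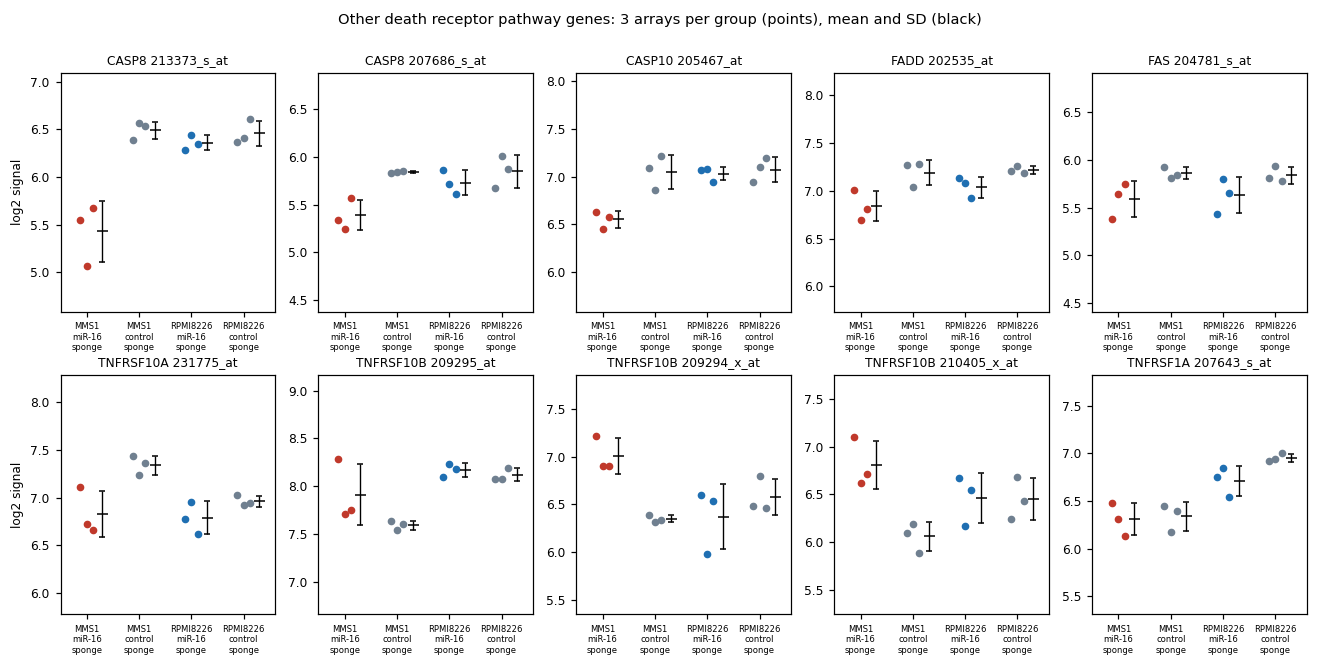
Log2 signal of the brightest probe set of each member other than CFLAR, and of their other called probe sets, on the 3 arrays of each group (points) with mean and SD (black bars). Every panel spans the same range of log2 units. The MMS1 miR-16 sponge arrays lie below their controls for CASP8, CASP10, FADD, FAS and TNFRSF10A, above them for TNFRSF10B and among them for TNFRSF1A, while most RPMI8226 groups lie close together.

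Between the control arrays of the lines, 2 of the 35 probe sets were called higher in RPMI8226 and 0 lower, where 5.45% of all probe sets were called higher and 2.73% lower, so nothing about the members is read from the count. TNFRSF1A was 0.61 (SE 0.12) higher in RPMI8226 controls, 1.53 times the MMS1 control signal, and that call held when any 1 array was left out. TNFRSF10B 209295_at was 0.53 (SE 0.14) higher in RPMI8226 controls, a call lost without any 1 of the 6 control arrays (0.49 to 0.55). None of the CFLAR probe sets was called, with line differences of -0.24 to 0.40. With all probe sets of a gene averaged first, the MMS1 sponge comparison called CFLAR (-0.54), CASP8 (-0.39), FADD (-0.35) and TNFRSF10A (-0.32) lower and TNFRSF10B (0.48) higher. FADD has 1 probe set, so averaging left its difference as it was, and its call came with 19775 genes tested in place of 54613 probe sets. CASP10 came to -0.07 in MMS1 and was not called. The same averaging called no member in RPMI8226, where CFLAR came to -0.29.

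Because CFLAR, CASP10 and CASP8 stand side by side on chromosome 2, the protein-coding genes around them were read as well, by the brightest probe set of each. Lower values in MMS1 were not confined to these 3 genes. This look was added after the members' values were seen, first with the nearest 5 genes on each side and then with 15. Of the 30 genes 27 were measured, and 10 were called lower and 0 higher in MMS1, where 8.08% of all genes were called lower. The 10 called genes all had probe sets brighter than the median, and the 8.08% includes dim genes. When only probe sets brighter than the median were fitted, 4023 of 27306 were called lower in MMS1. The median difference of the 27 genes was -0.26, and the median of all genes -0.04. In RPMI8226 0 of the 27 were called, with a median of -0.09.

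Among the nearest 10 genes, 4 fell in MMS1. STRADB, a pseudokinase partner of the kinase LKB1, fell by 0.89 (limma, adjusted p = 0.000173), TRAK2, an adaptor for mitochondrial transport, by 0.88 (adjusted p = 0.000238), NIF3L1 by 0.92 (adjusted p = 0.00101) and HYCC2 by 0.58 (adjusted p = 0.00749). Of the 17 measured genes farther out 6 fell, among them BZW1, a regulator of translation initiation, by 0.69 (adjusted p = 0.000796) and SGO2, a protector of centromeric cohesin, by 0.73 (adjusted p = 0.00177). The others were FAM117B, which fell by 0.67 (adjusted p = 0.0026), MAIP1 by 0.48 (adjusted p = 0.00452), KIAA2012 by 0.67 (adjusted p = 0.0224) and SPATS2L by 0.71 (adjusted p = 0.0256). The KIAA2012 call was lost without MMS1 control replicate 1 or 2 or MMS1 miR-16 sponge replicate 2, and the SPATS2L call without any 1 of the MMS1 controls or MMS1 miR-16 sponge replicates 2 and 3. The difference between the effects, called for 5.90% of all genes, was called for STRADB (0.89, adjusted p = 0.00474), TRAK2 (0.65, adjusted p = 0.0342) and NIF3L1 (0.78, adjusted p = 0.0416), all less negative in RPMI8226. The TRAK2 and NIF3L1 differences were lost on leaving out any 1 of 8 and of 10 arrays (lowest adjusted p = 0.053 and 0.0624), and the STRADB difference on none. With the replicate number as a block the TRAK2 and NIF3L1 differences were lost as well.

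**Figure D4:**
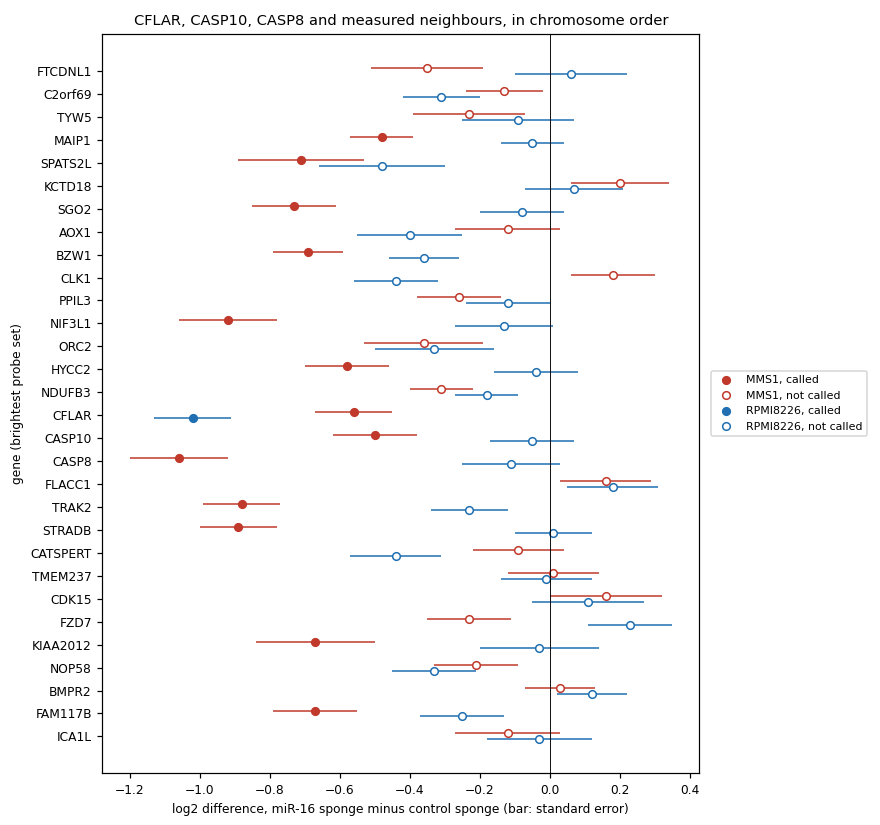
Log2 difference, miR-16 sponge minus control sponge, of CFLAR, CASP10, CASP8 and the protein-coding genes around them on chromosome 2, in gene order, for MMS1 (red) and RPMI8226 (blue), by the brightest probe set of each gene. Filled points were called, and bars are standard errors. In MMS1 10 neighbours are filled and all lie below 0, and in RPMI8226 no neighbour is filled.

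The rest of the pathway was followed through 44 other genes, 38 of them measured. In MMS1 2 were called higher and 3 lower, where 4.34% of all genes were called higher and 8.08% lower. These shares are close, so nothing about the pathway is read from the counts, and the called genes below are description. Of the 38 differences in MMS1, 22 were negative and 16 positive. In RPMI8226 0 were called, where 0.217% of all genes were, with 7459 of all probe sets at an unadjusted p under 0.05. The median was -0.07 in MMS1 and -0.00 in RPMI8226, beside -0.04 and -0.02 over all genes. The other 6 were not analysed here.

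None of the 5 ligands was called in either line. TNFSF10, which encodes TRAIL, read 9.03, 9.21 and 9.11 in RPMI8226 with the miR-16 sponge and 8.73, 8.89 and 8.58 with the control, a difference of 0.38 (limma, adjusted p = 0.174), and differed by 0.05 in MMS1. Of 7 other death and decoy receptors 1 was called: TNFRSF11B, the decoy receptor osteoprotegerin, read 5.37, 5.69 and 5.59 in MMS1 with the miR-16 sponge and 5.15, 5.22 and 5.19 with the control (0.36, SE 0.11, adjusted p = 0.0438). That call held when the first MMS1 or the third RPMI8226 miR-16 sponge array was left out, and was lost on leaving out any other array (0.29 to 0.38, lowest adjusted p = 0.0542). It was also lost with an intensity trend (adjusted p = 0.106), with only the MMS1 arrays fitted (0.124) and with the replicate number as a block (0.0675).

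Of 15 adaptors and regulators 2 were called lower in MMS1. CASP8AP2, a partner of CASP8 that also works in histone transcript processing, read 6.32, 6.24 and 6.49 with the miR-16 sponge and 6.75, 6.78 and 6.94 with the control (-0.47, SE 0.10, adjusted p = 0.00842, and 0.0519 with only the MMS1 arrays fitted). DAXX, a FAS-binding protein and histone chaperone, read 7.44, 7.33 and 7.40 with the miR-16 sponge and 7.84, 7.80 and 7.68 with the control (-0.39, SE 0.09, adjusted p = 0.0186). Neither group pair overlapped. The DAXX call was lost without MMS1 control replicate 1 (adjusted p = 0.0813) or 2 (0.0626) or MMS1 miR-16 sponge replicate 2 (0.0684), and with only the MMS1 arrays fitted (0.0761).

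Downstream, the transcripts of 2 mitochondrial proteins that are released in apoptosis were called in opposite directions in MMS1. CYCS, cytochrome c, read 11.68, 11.37 and 11.48 with the miR-16 sponge and 10.88, 10.89 and 10.92 with the control (0.61, SE 0.11, adjusted p = 0.00206). HTRA2, a protease that binds inhibitors of apoptosis, read 8.36, 8.06 and 8.20 with the miR-16 sponge and 9.00, 8.95 and 8.95 with the control (-0.76, SE 0.11, adjusted p = 0.000435). Both calls held when any 1 array was left out. In RPMI8226 each differed by -0.18 and neither was called. The difference between the effects was called for CYCS (-0.79, SE 0.15, adjusted p = 0.00777) and HTRA2 (0.58, SE 0.15, adjusted p = 0.0428), and the HTRA2 one held when MMS1 miR-16 sponge replicate 1 or RPMI8226 control replicate 1 was left out and was lost on leaving out any other array (0.50 to 0.63, lowest adjusted p = 0.0508).

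**Figure D5:**
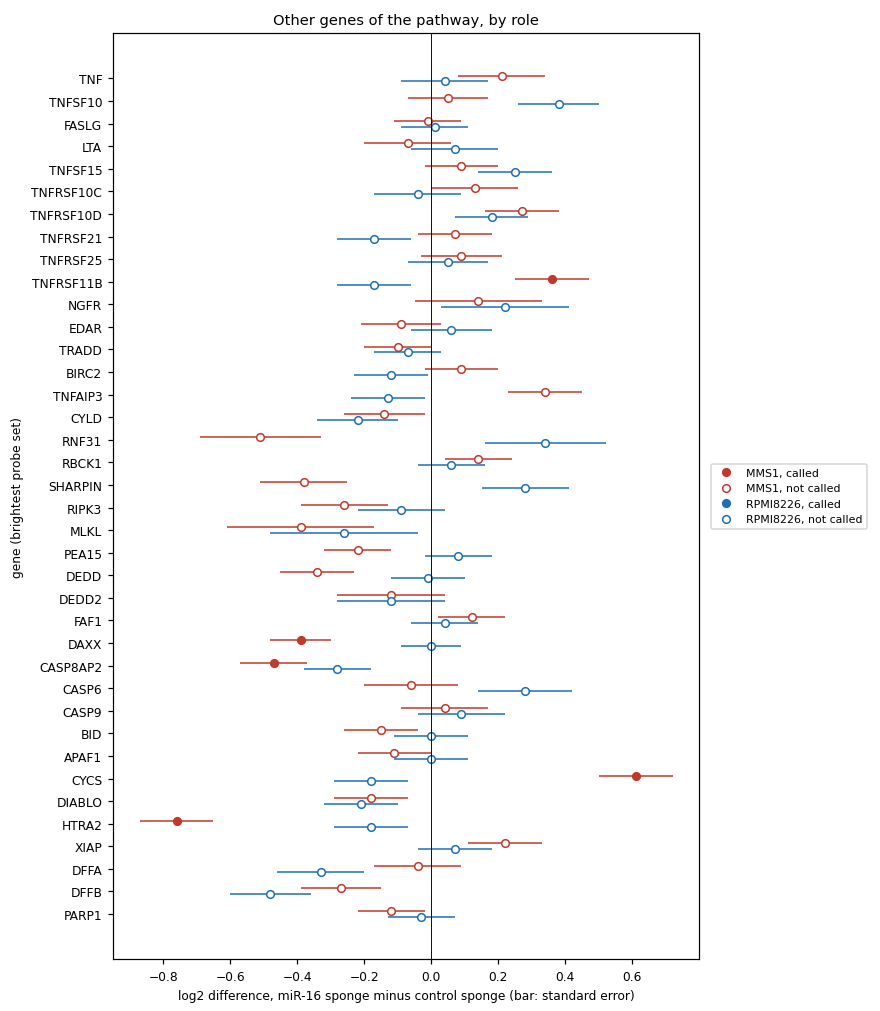
Log2 difference, miR-16 sponge minus control sponge, of the 38 other death receptor pathway genes measured, in MMS1 (red) and RPMI8226 (blue), by list, with standard errors as bars. Filled points were called. In MMS1 TNFRSF11B and CYCS are filled above 0, and CASP8AP2, DAXX and HTRA2 below 0.

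Between control arrays 6 of the 38 genes were higher in RPMI8226 and 1 lower, where 6.52% of all genes were called higher and 3.80% lower. The nuclease DFFB was 0.61 (limma, adjusted p = 0.00517) and its inhibitor DFFA 0.85 (adjusted p = 0.00135) higher in RPMI8226, CYCS 0.80 (adjusted p = 0.000327) and CASP8AP2 0.71 (adjusted p = 0.000556). RBCK1, a subunit of the linear ubiquitin ligase complex, was 0.49 higher (adjusted p = 0.008), and TNFAIP3, an inhibitor of NF-kB signalling, 0.52 higher (adjusted p = 0.0112, and 0.0552 without MMS1 control replicate 2). PEA15, a small death effector domain protein, was lower in RPMI8226 (-0.36, adjusted p = 0.0394), a call lost on leaving out any 1 of 9 arrays. The PEA15 call was also lost with only the control arrays fitted (adjusted p = 0.0763) and with the replicate number as a block (0.0511).

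Finally, gene profiles over the 12 arrays were ranked by their root mean square difference from CFLAR 209939_x_at, each centred on its own mean. The nearest was GASK1B (0.170), which differed by -0.83 in MMS1 and -0.84 in RPMI8226. SYT15-AS1 (0.196), STAT5A (0.201), SEC14L1 (0.206) and WDR59 (0.211) followed, with differences of -0.54 to -0.31 in MMS1 and -0.61 to -0.55 in RPMI8226. Among the members TNFRSF10A ranked 503 of 19774 genes, FADD 1384, FAS 1656, CASP10 5780, TNFRSF1A 13258, CASP8 15107 and TNFRSF10B 18172. These ranks hold for 209939_x_at alone: another CFLAR probe set, 211862_x_at, differed by -0.80 in MMS1 and -0.07 in RPMI8226, and CASP8 213373_s_at by -1.06 and -0.11.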

How the data were processed

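Transcript levels were measured on 12 Affymetrix arrays, 3 per group, from 15 µg of total RNA with 2 rounds of linear amplification, per the labels' protocols. Each array has 1 deposited log2 signal per probe set. No source used here gives the authors' summarization or scaling, and the values were used as deposited. Leaving out 62 Affymetrix controls, 54613 probe sets were tested, of which 41091 name 1 gene, 1801 several and 11721 none in the platform annotation.

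The linear model in limma 3.58.1 (R 4.3.3) gave each group its own mean over the 12 arrays, with 8 residual and 4.92 prior degrees of freedom. Tests were two-sided, with Benjamini-Hochberg adjustment within each comparison. Precision is limited by the number of arrays. The fit was tested on data simulated with 200 changed probe sets. Of changes of 0.5, 12.1% were called in the MMS1 comparison and 7.58% in the RPMI8226 one, and of changes of 1, 87.1% and 80.6%. Both runs used the same spreads and the same changed probe sets, so the gap between their rates says nothing about the lines. The rates also depend on how many probe sets change. On the real arrays 5635 were called in MMS1 and 107 in RPMI8226, so the rates do not carry over to those fits. Since each run missed part of the changes put in, a difference that was not called is not shown to be absent.

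The members and lists were chosen with earlier results of these data known. Every CFLAR probe set is named, for each other member the brightest and any other called in a sponge comparison, and, per pathway list, up to 4 called genes each way. Genes outside the lists, the neighbours on chromosome 2, the grouping of CFLAR probe sets and the NF-kB search were chosen after values or sequences had been seen. Alternatives were quantile normalization, brighter probe sets only, an intensity trend, only the groups compared, a replicate block, leaving out each array, gene means and leaving out x_at probe sets. Replicate numbers did not pair arrays (residual correlations -0.0748 to 0.0577). Promoter and microRNA sequences are from RefSeq (GRCh38.p14).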

Additional observations from a re-analysis of the deposited data

Results flagged for a closer look

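Among the members and the other pathway genes, the effect of the miR-16 sponge differed between the lines at 4 probe sets. The calls are by limma's interaction term with Benjamini-Hochberg adjustment. The difference, RPMI8226 effect minus MMS1 effect, was 0.96 for CASP8 213373_s_at, -0.87 for TNFRSF10B 209294_x_at, -0.79 for CYCS 208905_at and 0.58 for HTRA2 203089_s_at. Of the 35 member probe sets 1 was thus called higher and 1 lower, and of the 38 other pathway genes also 1 and 1. These shares are near those of all probe sets (5.10%) and all genes (5.90%), so nothing is read from the count. The CASP8 and CYCS calls held when any 1 array was left out and with the replicate number as a block. The TNFRSF10B and HTRA2 calls were lost on leaving out any 1 of 11 and of 10 of the 12 arrays. They were also lost with the block (adjusted p = 0.0681 and 0.0563). CASP8 and TNFRSF10B are members and their values are description, and the list that holds CYCS and HTRA2 was also chosen with earlier results of these data known. In CASP10 211888_x_at the differences had opposite signs in the lines, and the difference between them was -0.47, which was not called.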

How the results depend on the processing

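With 3 arrays per group, no call changed direction under any alternative run. The 14 members called in MMS1 became 8 to 15 on leaving out 1 array (8 without MMS1 control replicate 3), and the 8 CFLAR probe sets 7 to 9. The 5 other pathway genes called in MMS1 became 8 with brighter probe sets only, 2 with only the groups compared and 3 to 5 on leaving out 1 array (3 without MMS1 control replicate 1 or 2 or MMS1 miR-16 sponge replicate 2). In RPMI8226 the 3 member calls, all CFLAR, became 0 with only the groups compared and 4 with brighter probe sets or a trend, the added one being TNFRSF10A 241371_at (-0.48), and CFLAR, the 1 member gene called, became 0 with gene means or without x_at probe sets. Other pathway genes went to 1 with an intensity trend and neighbours of CFLAR to 2 with a trend or brighter probe sets. Over all probe sets the 107 RPMI8226 calls became 1268 with brighter probe sets, 1697 with a trend and 22 to 723 on leaving out 1 array. In MMS1 the 5635 became 3735 with only the groups compared. The 2 members whose effects differed between the lines became 4 with quantile normalization, 6 with brighter probe sets or a trend, and 1 to 3 on leaving out 1 array, and CFLAR probe sets went to 2, 3, 3 and 0 to 2 (2 without MMS1 miR-16 sponge replicate 1). The 2 members called between the control arrays became 4 with brighter probe sets and 1 to 3 on leaving out 1 array, and CFLAR 1 with brighter probe sets or a trend and 0 to 1 on leaving out 1 array. With the replicate number as a block, which paired no arrays, RPMI8226 calls over all probe sets came to 32, members called in MMS1 to 13 and members whose effects differed between the lines to 1. The interaction cannot be fitted with only 2 groups, so that alternative was not run for it. Where a cause is not named, it was not tested.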
